A study of Rattus norvegicus with 458 samples.

Results

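The miR-34 and miR-449 family was followed through 23 tissues of Sprague Dawley rats by small RNA sequencing. The members were the entries of the deposited miRNA count table named miR-34a, miR-34b, miR-34c, miR-449a or miR-449c, with or without an arm (5p or 3p), precursor entries left out. 13 of the 7534 names matched, of which 11 passed the filter on low counts and were tested. The other two were miR-449c-3p, with 6 counts over all samples, and a composite of a predicted miRNA and miR-449a-5p, with 1 count. The 11 tested names hold both arms of miR-34a, miR-34b, miR-34c and miR-449a, the 5p arm of miR-449c, a row called miR-449a after the human miRNA, and a composite row, miR-34b-5p;miR-34c-5p, for reads that fit both miRNAs.

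The rats were 12 to 13 weeks old and naive, 5 males (rats 2 to 6) and 5 females (rats 7 to 11), and no group received a treatment. Each of 19 tissues came from all 10 rats, Testicle from the 5 males, and Ovary and Uterus from 4 females each. Dorsal root ganglion (DRG) was 1 RNA pool per sex, with 5 technical libraries of each pool, so its 2 values are not single animals. According to the paper, Takeda Pharmaceuticals supplied the DRG RNA, so source and tissue cannot be told apart in contrasts with DRG. Cortex and Medulla are the outer and inner kidney, and WholeBlood is unfractionated blood. Ovary of rat 11 and Uterus of rat 8 were left out by the rule for the members; their intestinal miR-215 stood at 270908.0 and 267430.5 counts per 1000000 (CPM).

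miRNAs silence messenger RNAs that pair with their seed, the bases 2 to 8 from the 5′ end. miR-34a is made from a transcript of its own, miR-34b and miR-34c come from a shared one, the tumour suppressor p53 can switch on both, and the miR-449 miRNAs lie in an intron of a gene active in multiciliated cells. The family is known for its part in the making of motile cilia and in spermatogenesis, and miR-34a also for neurons and for the arrest of the cell cycle.

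The sequences below are shown because the shared seed joins the members and the remaining bases let the counts tell them apart. They are the mature sequences of RefSeq, placed on the rat genome GRCr8, with the seed in capitals.
miR-34a-5p: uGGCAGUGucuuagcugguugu
miR-34b-5p: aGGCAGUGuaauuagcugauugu
miR-34c-5p: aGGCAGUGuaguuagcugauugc
miR-449a-5p: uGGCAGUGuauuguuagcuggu
miR-449c-5p: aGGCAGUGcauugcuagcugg
miR-34b-3p: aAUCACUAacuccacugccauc
miR-34c-3p: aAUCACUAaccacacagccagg
The 5 names of the 5p arm share the seed GGCAGUG, and miR-34b-3p and miR-34c-3p share AUCACUA. The genes lie in 3 places, none of them on the same chromosome. miR-34a-5p is at chr5:165815971-165815992 on the plus strand. miR-34b-5p (chr8:60306657-60306679) and miR-34c-5p (chr8:60306133-60306155) are on the minus strand, in hairpins with 441 bases between them. miR-449c-5p (chr2:46402394-46402414) and miR-449a-5p (chr2:46403925-46403946) are on the plus strand, in hairpins with 1436 bases between them. Counted from the 5′ end, miR-34b-5p and miR-34c-5p differ at 2 of 23 bases (A11G and U23C, the miR-34b-5p base first). miR-34a-5p differs from miR-34c-5p at 11 of the 22 bases compared, and miR-449a-5p from miR-449c-5p at 3 of 21 (U1A, U9C and U14C).

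The samples held 376401 to 17725805 miRNA counts, with a median of 4878646. Testicle was the shallowest tissue at 376401 to 653651, and no library of another tissue had under 1041508. Of 39 checks of a tissue by its marker miRNAs, 34 had the tissue among those of the marker at the top. A marker of several tissues, such as the 4 brain regions, passed where each of them was among the highest. The checks that failed were miR-202-5p and miR-202-3p in Ovary (rank 2), miR-143-3p and miR-145-5p in Uterus (rank 3) and miR-128-3p in Brainstem (rank 5). 8 libraries in the fit went against their label by these miRNAs. Duodenum of rats 2, 4 and 7 held brain miR-124-3p at 5310.6, 5627.4 and 4113.1 CPM and little miR-215, and Duodenum of rat 11 lacked miR-215 too (55.81 CPM). Adrenal of rat 8 and Hippocampus of rat 6 held miR-215 at 210076.0 and 232749.6 CPM. Hippocampus of rats 2 and 7 had miR-124-3p at 0.5678 and 2.377 CPM. These 8 and the 2 libraries left out above are called the 10 libraries out of place. Results on Duodenum, Adrenal or Hippocampus alone are mostly given with and without the 8. Contrasts that pool several tissues keep the 8 unless stated.

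miR-34c-5p was the most counted member with 1025261 counts, 67.0% of them from Testicle. miR-34a-5p followed with 162886 counts, of which only 1.9% came from Testicle. miR-449a-5p (44129 counts) and miR-34b-5p (33697) were again mostly Testicle, at 82.0% and 67.1%. Both miR-34c-5p and miR-34a-5p were counted in every sample, and miR-449c-5p in 156.

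**Figure D1:**
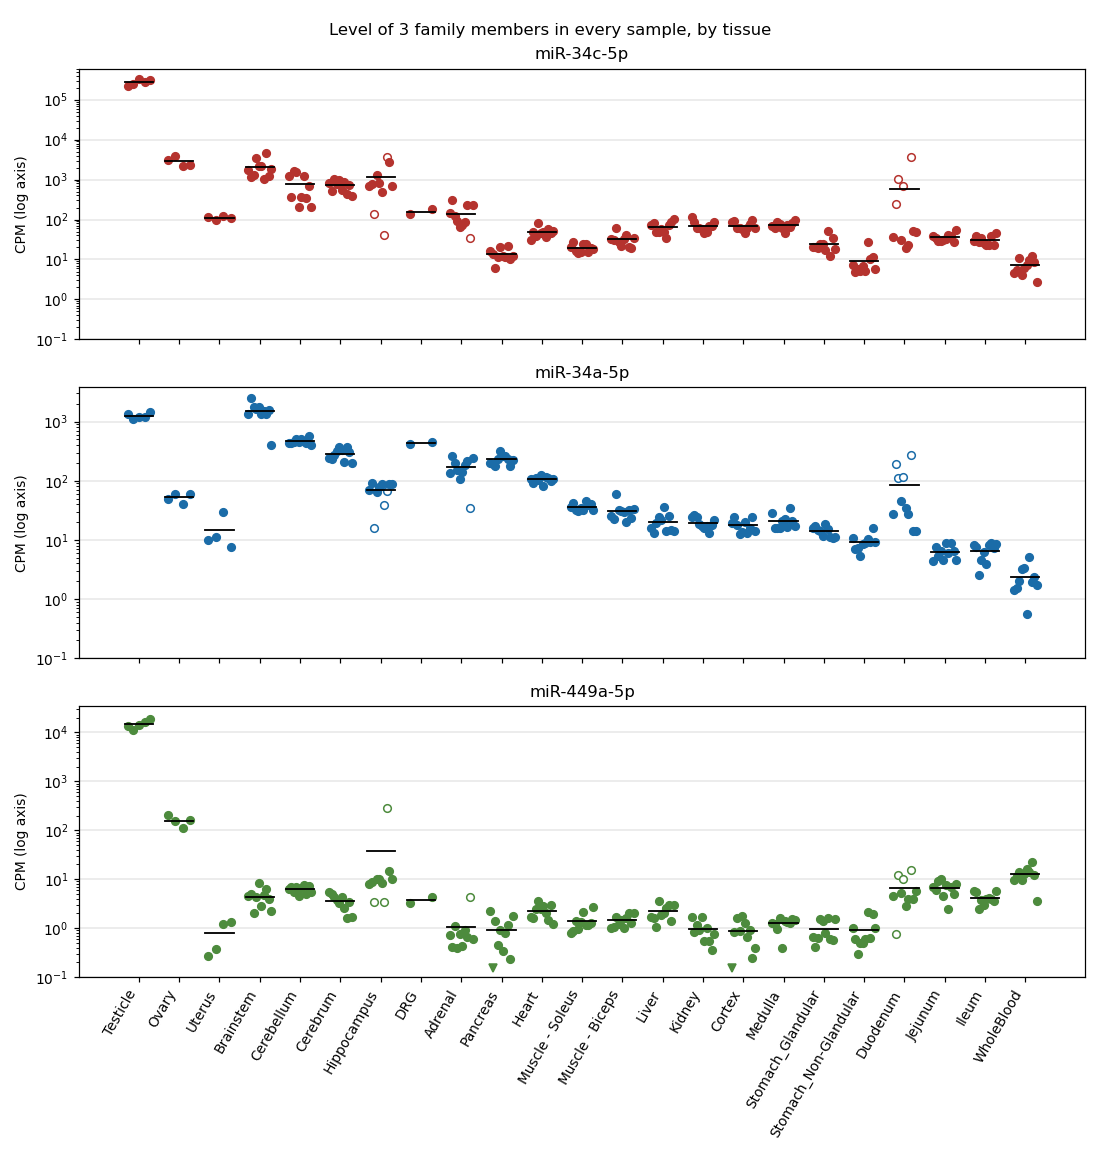
Level of miR-34c-5p, miR-34a-5p and miR-449a-5p in every sample of the 23 tissues, in CPM on a log axis; each point is a library of 1 rat (DRG: a pool), the black line is the tissue mean, hollow points are libraries out of place and downward triangles mark values of 0. Testicle stood alone at the top for miR-34c-5p and miR-449a-5p, while Brainstem and Testicle overlapped at the top for miR-34a-5p.

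In Testicle every member but miR-34a-3p was high, and miR-34c-5p led them. miR-34c-5p measured 222706.9, 240506.8, 334677.1, 283672.0 and 309283.8 CPM in rats 2 to 6, a mean of 278169.3 ± 46599.5 (SD, n = 5). miR-449a-5p measured 13573.5, 11368.2, 14053.4, 16403.9 and 19146.2 CPM (mean 14909.0 ± 2968.2). miR-34b-5p measured 7344.1, 8921.3, 10736.6, 9005.3 and 10086.2 CPM. For all 3, the lowest Testicle library was above the highest library of every other tissue. miR-449c-5p was lower, at 442.2, 491.5, 419.2, 422.8 and 448.5 CPM. miR-34a-5p, which has a promoter of its own, measured 1330.6, 1118.5, 1178.0, 1212.8 and 1446.6 CPM (mean 1257.3 ± 131.1). The Testicle libraries of miR-34a-5p lay inside the range of Brainstem, 404.8 to 2488.2 CPM. In bulk tissue, fewer cells of a type and less RNA per cell cannot be told apart, here or in any comparison that follows.

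Against the mean of the other 22 tissues, 10 of the 11 tested members were called higher in Testicle, where 18.9% of all names tested were called higher and 16.2% lower. Of the 10, miR-449a (22 counts, 20 of them in Testicle) and miR-449a-3p (39 counts, 34 in Testicle) passed the filter on low counts only through Testicle and so had to differ, which leaves 8 of the other 9. Differences are log2 fold changes of edgeR's quasi-likelihood test with Benjamini-Hochberg adjustment, given with their standard error (SE). miR-449a-5p was higher by 10.39 (SE 0.30, adjusted p = 9.56e-82), miR-34c-5p by 9.66 (SE 0.28, adjusted p = 9.56e-82) and miR-34b-5p by 9.57 (SE 0.31, adjusted p = 1.08e-73). miR-34b-3p (8.19), miR-449c-5p (7.84), the composite row (7.79) and miR-34c-3p (6.54) followed. miR-34a-5p was higher by 2.93 (SE 0.19, adjusted p = 2.01e-34), and miR-34a-3p, with 4 counts in Testicle, was at 1.03 with an adjusted p of 0.257. The rare names miR-449a-3p and miR-449a were at 0 in 18 and 20 tissues, so their fitted values (7.46 and 6.91) are not bounds on a fold. The median over all names tested was -0.46, and it moved to -0.13 with TMM scaling and 0.88 with DESeq2. DESeq2 called 284 names higher and 136 lower, edgeR 308 and 264. miR-34a-5p was higher under both other scalings, by 3.31 and 3.87.

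**Figure D2:**
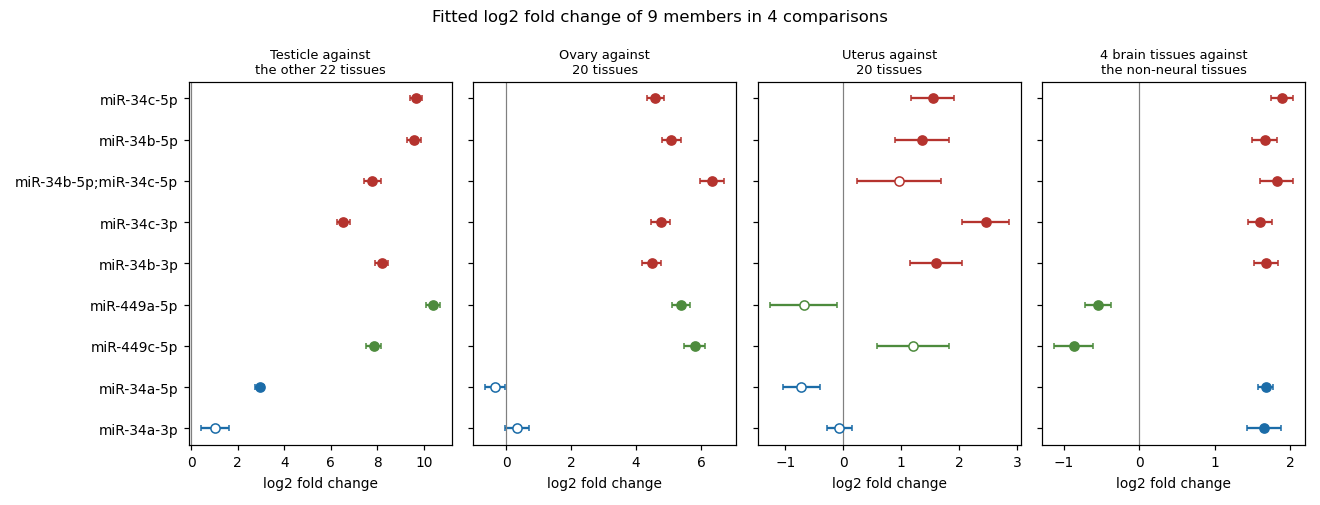
Log2 fold change with its SE for 9 members in 4 contrasts: Testicle against the other 22 tissues, Ovary and Uterus each against the 20 tissues outside the reproductive tract, and 4 brain regions against 18 non-neural tissues; filled points have an edgeR adjusted p under 0.05. miR-34a-5p was at 2.93 in Testicle and 1.67 in brain and was not called in Ovary or Uterus, while miR-34c-5p was higher in all 4.

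Ovary had the second highest mean of miR-34c-5p, miR-34b-5p, miR-449a-5p and miR-449c-5p, but not of miR-34a-5p. In rats 7, 8, 9 and 10 miR-34c-5p measured 3960.4, 2147.6, 2267.3 and 3075.9 CPM (mean 2862.8 ± 839.9, n = 4). This range overlapped Brainstem, which reached 4515.8 CPM. miR-449a-5p measured 155.1, 109.3, 158.7 and 203.3 CPM (mean 156.6 ± 38.41). Outside Testicle, no library of another tissue reached the lowest of these values except for Hippocampus of rat 7, which was out of place, at 291.8 CPM. miR-34a-5p measured 58.79, 40.72, 60.62 and 48.98 CPM (mean 52.28 ± 9.246), a middling level among the tissues.

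Against the 20 tissues outside the reproductive tract, 8 of 11 members were called higher in Ovary, with 12.8% of all names called higher and 5.46% lower. One of the 8 was miR-449a-3p, with 2 counts in Ovary. The composite row (6.35, SE 0.37), miR-449c-5p (5.80, SE 0.33) and miR-449a-5p (5.38, SE 0.27) were furthest up. miR-34b-5p (5.08) and miR-34c-5p (4.59, SE 0.26, edgeR adjusted p = 1.77e-39) came next. miR-34a-5p was at -0.33 (SE 0.31, adjusted p = 0.658) and miR-34a-3p at 0.34 (adjusted p = 0.775), while the median of all names was -0.31. DESeq2 split its calls over all names as 160 higher and 198 lower, against 208 and 89 in edgeR.

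Testicle stood above Ovary for 9 of 11 members (background 12.1% higher, 15.5% lower). The 11 include miR-449a and miR-449a-3p, which passed the filter only through Testicle and are not to be read against that background. The ratio of mean CPM was 97.17 for miR-34c-5p, 95.2 for miR-449a-5p, 65.38 for miR-34b-5p, 24.05 for miR-34a-5p and 12.69 for miR-449c-5p. In the fit, miR-34c-5p differed by 5.35 (SE 0.72, edgeR adjusted p = 3.68e-10) and miR-34a-5p by 3.22 (SE 0.44, edgeR adjusted p = 4.62e-10). The composite row was not called (1.78, adjusted p = 0.113). Over all names DESeq2 called 197 higher and 132 lower in Testicle, edgeR 197 and 253.

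Germ cell miRNAs were high together with the family in both gonads. The 19 miRNAs of the X-linked germ cell cluster summed to 32232.3 to 50347.9 CPM in Testicle and 240.5 to 925.6 CPM in Ovary. In every other tissue the median of this sum was 2.462 CPM (DRG) or less. All 18 tested were called higher in each gonad, with medians of 11.21 and 6.92, beside 18.9% of all names in Testicle and 12.8% in Ovary. Names so close to 0 elsewhere passed the filter mostly through the gonads, so these calls were nearly fixed and are not to be read against those shares. miR-202-5p, a miRNA of the gonads, was at 499.6 to 785.6 CPM in Ovary and averaged 4368.5 in Testicle. Their part in the Ovary levels was not tested. 8 miRNAs listed as epithelial (the miR-200 family and the miR-183 cluster) summed to 4300.5 to 5392.7 CPM in Ovary, 900.4 to 2031.5 in Uterus and 189.2 to 447.6 in Testicle. The same sum was 77498.9 to 81042.2 CPM in DRG, whose markers were the miR-183 cluster, and had a median of 6136.2 in Brainstem. It is thus not a measure of epithelium. Cilia genes are not read by small RNA libraries, so the share of ciliated cells could not be checked.

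In Uterus both arms of miR-34b and miR-34c were called higher, and the composite row and the miR-449 members were not called. miR-34c-5p measured 120.3, 107.7, 118.0 and 100.1 CPM in rats 7, 9, 10 and 11 (mean 111.5 ± 9.377, n = 4). miR-449a-5p measured 1.187, 1.309, 0.2639 and 0.3714 CPM, a level of a few counts per library. miR-34a-5p measured 29.48, 7.692, 10.03 and 11.14 CPM, with rat 7 apart from the other three.

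4 of 11 members were higher in Uterus than in the 20 tissues outside the reproductive tract, beside 10.3% of all names higher and 2.46% lower. These were miR-34c-3p (2.45, SE 0.40, edgeR adjusted p = 1.26e-07), miR-34b-3p (1.60, SE 0.45), miR-34c-5p (1.54, SE 0.37, edgeR adjusted p = 0.000571) and miR-34b-5p (1.36, SE 0.46, adjusted p = 0.0302). The last lost its call without rat 9 (adjusted p = 0.0763) or rat 10 (0.177), with DESeq2 (0.0879), on 1 flow cell (0.0973), when no name was filtered out (0.0674) and with the 2 left-out libraries put back (0.0574). The composite row was at 0.96 with an adjusted p of 0.469. miR-449a-5p was at -0.68 (adjusted p = 0.562), miR-449c-5p at 1.2 (0.219) and miR-34a-5p at -0.72 (0.129; 0.00926 with DESeq2). The median of all names was -0.34, and DESeq2 called 121 names higher and 117 lower where edgeR called 168 and 40. The X-linked germ cell cluster summed to 0.2639 to 17.27 CPM in Uterus, with 1 of 18 called higher.

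Ovary and Uterus differed, and how much ciliated epithelium either of them held was not measured. 7 of 11 members were higher in Ovary (background 3.19% higher, 0.921% lower). miR-449a-5p differed by 6.06 (edgeR adjusted p = 9.68e-09) and miR-34c-5p by 3.05 (edgeR adjusted p = 0.000624), a ratio of mean CPM of 25.68 for the latter. miR-34a-5p differed by 0.39 with an adjusted p of 0.776.

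Brainstem, Cerebellum and Cerebrum held much miR-34a-5p, and all 4 brain regions held much miR-34c-5p. Mean miR-449a-5p ran from 3.55 CPM in Cerebrum to 10.05 in the Hippocampus libraries in place, far below Testicle and Ovary. Brainstem had the highest mean of miR-34a-5p of any tissue, with the lowest, median and highest value at 404.8, 1532.9 and 2488.2 CPM (mean 1506.9 ± 514.4, n = 10). Cerebellum (405.2, 454.9 and 573.1) and Cerebrum (198.2, 293.5 and 373.1) had lower medians. Hippocampus was at 64.75, 87.17 and 90.62 CPM in the 7 libraries in place, below every Cerebrum library. Hippocampus thus had the lowest miR-34a-5p of the 4 regions. Over all 10 libraries its range was 15.76 to 90.62 CPM.

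The highest over the lowest level of miR-34c-5p was 8.211 in Cerebellum, 2.706 in Cerebrum and 5.463 in Hippocampus without the libraries out of place, against 1.415, 1.883 and 1.4 for miR-34a-5p. In Brainstem it was 4.389 for miR-34c-5p and 6.147 for miR-34a-5p, whose lowest value, 404.8 CPM, was rat 9; these spreads were not tested against each other. Its lowest, median and highest value was 1028.9, 1774.6 and 4515.8 CPM in Brainstem and 388.5, 750.6 and 1051.3 in Cerebrum. In Cerebellum it ran from 203.3 to 1669.6 CPM (mean 789.8 ± 577.4, n = 10), with rats 2, 3, 6 and 10 at 1234.0 or above and rats 4, 5, 7, 9 and 11 at 371.8 or below. The same Cerebellum libraries gave the same miR-34c-5p on separate flow cells within a factor of 1.029 to 1.179. Hippocampus without the libraries out of place ran from 500.3 to 2733.1 CPM (n = 7), and over all 10 from 41.62 to 3667.4.

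miR-34b-5p followed miR-34c-5p across the rats. The 5 libraries highest in miR-34c-5p were the same 5 highest in miR-34b-5p in Brainstem, in Cerebellum and in Cerebrum. Of those 5, only 2, 3 and 2 were among the 5 highest in miR-34a-5p. The ratio of miR-34c-5p to miR-34b-5p was 26.96 to 31.5 in Testicle, 18.97 to 22.56 in Ovary and 28.99 to 44.65 in Brainstem. The ratio of miR-34c-5p to miR-449a-5p was 16.15 to 23.81 in Testicle and 14.29 to 25.53 in Ovary, against 217.0 to 830.6 in Brainstem and 82.25 to 447.0 in Uterus.

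**Figure D3:**
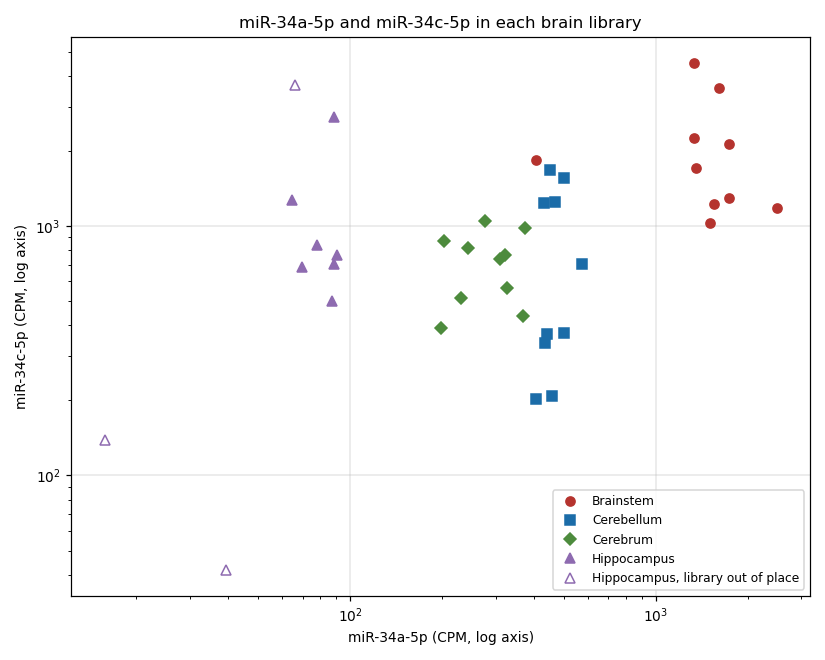
miR-34a-5p (horizontal) against miR-34c-5p (vertical) in each library of 4 brain regions, both in CPM on log axes; hollow triangles are the Hippocampus libraries out of place. The regions stood apart along miR-34a-5p, with Hippocampus lowest, and Cerebellum spread over 203.3 to 1669.6 CPM along miR-34c-5p.

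Against 18 non-neural tissues, 7 of 11 members were higher in the 4 brain regions and 2 were lower. Of all names 25.4% were higher and 33.8% lower. The Hippocampus, Duodenum and Adrenal libraries out of place were kept in this contrast. miR-34c-5p was higher by 1.89 (SE 0.14, edgeR adjusted p = 1.16e-28), miR-34a-5p by 1.67 (SE 0.10, edgeR adjusted p = 2.08e-40) and miR-34b-5p by 1.66. miR-34a-3p, miR-34b-3p, miR-34c-3p and the composite row were higher by 1.60 to 1.82. miR-449c-5p was lower by -0.86 (SE 0.26, adjusted p = 0.00191) and miR-449a-5p by -0.54 (SE 0.18, adjusted p = 0.004), close to the median of all names of -0.74. miR-449c-5p lost its call with TMM scaling (-0.22, adjusted p = 0.748), with DESeq2 (-0.24, 0.333), on 1 flow cell (-0.76, adjusted p of 1) and without rat 9 (-0.74, adjusted p of 1). The direction of miR-449a-5p turned with TMM scaling (0.14) and with DESeq2 (0.11), neither of them called, and its call was lost on 1 flow cell (-0.34), without rat 9 (-0.40, adjusted p = 0.0544) and without either DRG pool (-0.39, 0.0559). Over all names TMM scaling gave 559 higher and 392 lower, edgeR's upper quartile 414 and 551. The X-linked germ cell cluster summed to 0.1712 to 41.05 CPM in Brainstem (median 1.283), 0.0 to 31.32 in Cerebellum (median 0.1941) and 0.0 to 9.562 in Cerebrum (median 0.3754), with rat 11 the highest in each, and to 0.0 to 458.2 in Hippocampus, where the highest was the library of rat 7. 0 of its 18 tested members were called either way (median -0.52).

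Within the brain, Brainstem was above Cerebrum for 4 of 11 members (background 3.13% higher, 4.48% lower). miR-34a-5p was higher by 2.10 (SE 0.27, edgeR adjusted p = 1e-10) and miR-34c-5p by 1.32 (SE 0.39, edgeR adjusted p = 0.0167), with ratios of mean CPM of 5.286 and 2.911. miR-34a-3p (1.93) and miR-34c-3p (1.29) were called too. miR-34b-5p was at 1.21 with an adjusted p of 0.0685, and at 1.25 with 0.0366 in the fit with the rat as a replicate block. Over all names edgeR called 51 higher and 73 lower, TMM scaling 97 and 55. Cerebellum exceeded Cerebrum for miR-34a-5p (1.24, SE 0.26, edgeR adjusted p = 8.74e-05; 0.0599 with no filter on low counts) and miR-449a-5p (1.31, SE 0.42, adjusted p = 0.0154; 0.0633 with DESeq2 and 0.0558 on 1 flow cell), beside 11.6% of all names higher and 10.3% lower. miR-34c-5p was not called there (0.68, SE 0.39, adjusted p = 0.222).

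Hippocampus differed from Cerebrum in opposite directions for miR-34a-5p and miR-449. Without the 10 libraries out of place, miR-34a-5p was lower by -1.96 (SE 0.26, edgeR adjusted p = 4.91e-09), miR-449a-5p higher by 1.35 (SE 0.29, edgeR adjusted p = 0.000985) and miR-449c-5p by 1.99 (SE 0.48, edgeR adjusted p = 0.00362). miR-34c-5p (0.50, adjusted p = 0.51) and miR-34b-5p (0.23, 0.897) were not called. With all 10 Hippocampus libraries, 7 members were called higher, among them miR-449a-5p at 4.81 and miR-34c-5p at 1.49, and miR-34a-5p was at -1.52 (background 16.7% higher, 4.17% lower). Hippocampus of rat 7 held miR-34c-5p at 3667.4, miR-449a-5p at 291.8 and miR-202-5p at 413.6 CPM, with the X-linked germ cell cluster at 458.2 CPM, all near the Ovary values above.

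Brainstem and Testicle, the tissues with the most miR-34a-5p, overlapped in it and differed in most of the family. miR-34a-5p was at 0.12 in Brainstem against Testicle (SE 0.32, edgeR adjusted p = 0.793), a ratio of mean CPM of 0.8344 for Testicle over Brainstem. 9 of 11 members were lower in Brainstem (background 21.0% higher, 30.3% lower), miR-34c-5p by -7.20 and miR-449a-5p by -11.83. The 11 include miR-449a and miR-449a-3p, which were at 0 in Brainstem and passed the filter only through Testicle. Those names had to differ and are not to be read against the background. The ratio of mean CPM was 134.1 for miR-34c-5p and 3366.2 for miR-449a-5p.

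DRG, the sensory ganglia beside the spinal cord, was rich in miR-34a-5p. The female pool stood at 416.8 CPM (364.1 to 525.2 over its technical libraries) and the male pool at 455.9 (396.5 to 466.2). miR-34c-5p was at 136.7 and 180.9 CPM. Against the other 22 tissues miR-34a-5p was higher by 1.94 (SE 0.32, edgeR adjusted p = 2.79e-07), beside 13.4% of all names higher and 3.93% lower, and miR-34c-5p was at -1.06 with an adjusted p of 0.365. The test of DRG rests on 2 pools.

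Tested 1 tissue at a time against the other 22, the members shared some of the tissues in which they were called higher. Brainstem, Cerebellum, Cerebrum and Testicle were called for both miR-34a-5p and miR-34c-5p, and these 2 lists differed elsewhere. miR-34a-5p was called higher in 8 tissues (Adrenal, Brainstem, Cerebellum, Cerebrum, DRG, Heart, Pancreas and Testicle) and lower in 12. miR-34c-5p was called higher in 7 (Brainstem, Cerebellum, Cerebrum, Duodenum, Hippocampus, Ovary and Testicle) and lower in 11. miR-449a-5p was called higher in 5 (Hippocampus, Jejunum, Ovary, Testicle and WholeBlood) and lower in 10. Over the 23 tissues, 23.3% of all tests were called higher and 11.2% lower. The Duodenum call for miR-34c-5p (0.70, adjusted p = 0.0261) turned to -1.67 (SE 0.32, edgeR adjusted p = 4.79e-06) without the libraries out of place (background with them 30.8% higher, 4.48% lower). The Hippocampus call for miR-449a-5p (3.03; background 30.0% higher, 11.8% lower) likewise went to -0.42 (adjusted p = 0.156).

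Pancreas and Heart had high miR-34a-5p with low miR-34c-5p. In Pancreas the lowest, median and highest miR-34a-5p was 176.3, 231.0 and 321.3 CPM, while miR-34c-5p was at 6.121, 12.09 and 21.35. All 10 Pancreas libraries thus had more reads of miR-34a-5p than of miR-34c-5p, by their ranges. miR-34a-5p was higher there by 2.38 (SE 0.15, edgeR adjusted p = 3.51e-35) and miR-34c-5p lower by -3.39 (SE 0.38, edgeR adjusted p = 1.03e-14), with 30.5% of all names higher and 13.0% lower. Pancreas RNA was also the most degraded, with an RNA integrity number of 4.9 to 6.8 per the labels against tissue medians of 7.2 to 8.9 elsewhere, and its part in these values was not tested. Heart held miR-34a-5p at 82.01, 108.2 and 123.1 CPM, higher by 1.48, and miR-34c-5p was lower by -1.18 (background 29.7% and 7.86%). Adrenal miR-34a-5p was at 108.5 to 261.2 CPM in the 9 libraries in place and higher by 1.57 (1.4 with rat 8; background 18.5% higher and 12.0% lower).

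WholeBlood had the lowest mean of both miR-34a-5p and miR-34c-5p and the third highest of miR-449a-5p, after Testicle and Ovary, where the Hippocampus libraries out of place were left aside. miR-34a-5p was at 0.5549, 1.951 and 5.235 CPM (lowest, median and highest) and miR-34c-5p at 2.763, 6.576 and 12.54. miR-449a-5p was at 3.626, 12.42 and 22.1 CPM and miR-449c-5p at 1.554, 3.527 and 6.363. Against the other 22 tissues miR-449c-5p was higher by 5.44 (SE 0.28, edgeR adjusted p = 3.36e-45) and miR-449a-5p by 4.55 (SE 0.22, edgeR adjusted p = 9.17e-48), beside 37.2% of all names higher and 16.6% lower. miR-34a-5p (-1.72) and miR-34c-5p (-1.50) were lower. The miR-449 fold changes rest on upper quartile scaling and are larger than the CPM levels give. The mean of miR-449a-5p was 12.53 CPM in WholeBlood, 10.05 in the Hippocampus libraries in place and 6.68 in Jejunum. The median over all names was 0.38, and values under other scalings are not given for WholeBlood. In Jejunum, part of the small intestine, miR-449a-5p (1.5) and miR-449c-5p (1.84) were higher as well, at means of 6.68 and 1.391 CPM (background 28.4% and 13.4%).

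The order of tissues by mean level was only partly resolved. Of the 22 neighbouring pairs in the order of miR-34a-5p, 2 did not overlap (Testicle above Cerebellum, DRG above Cerebrum). For miR-34c-5p 2 pairs did not overlap (Testicle above Ovary, Uterus above Medulla), and for miR-449a-5p 1 (Testicle above Ovary). The neighbours in all other places of these 3 orders had overlapping ranges.

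A share within a library does not depend on how libraries are scaled, so miR-34a-5p was also taken as a percentage of the 5 names of the 5p arm. The paper holds that ligase bias certainly influenced how quantitative the sequencing was. Shares between different sequences are thus shares of reads and may differ from those of molecules. In Testicle miR-34a-5p made up 0.422% (range 0.3263 to 0.5422, n = 5) and in Ovary 1.677% (1.325 to 2.313, n = 4). Uterus was at 10.66%, WholeBlood at 9.825%, Cerebrum at 29.02%, Brainstem at 43.23% and Cerebellum at 43.82%. These brain shares ran widely, from 17.6 to 66.9% in Brainstem and from 20.71 to 67.81% in Cerebellum. At the other end Heart was at 66.82% and Pancreas at 93.75% (90.81 to 95.86), and 5 tissues of single rats had a mean over 50%. The DRG pools were at 74.17% (female) and 70.48% (male).

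The share was higher than in Testicle in 21 of 21 tissues by exact two-sided permutation tests on the mean with Benjamini-Hochberg adjustment, and every library of the 21 lay above every Testicle library. For Brainstem p was 0.000333 (adjusted 0.000466), the smallest value that exact permutation of these group sizes allows. For Ovary it was 0.00794 (adjusted 0.00833), again the smallest that exact permutation allows. Hippocampus was at 11.69% over 10 libraries and 8.602% over the 7 in place, and Duodenum at 31.61% over 10 and 40.47% over the 6 in place. miR-34c-5p made up 91.45% in Testicle, 87.96% in Ovary and 85.78% in Uterus but 5.572% in Pancreas. miR-449a-5p made up 4.932% in Testicle and 4.964% in Ovary, and reached 47.58% in WholeBlood, where miR-449c-5p added 14.73%.

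**Figure D4:**
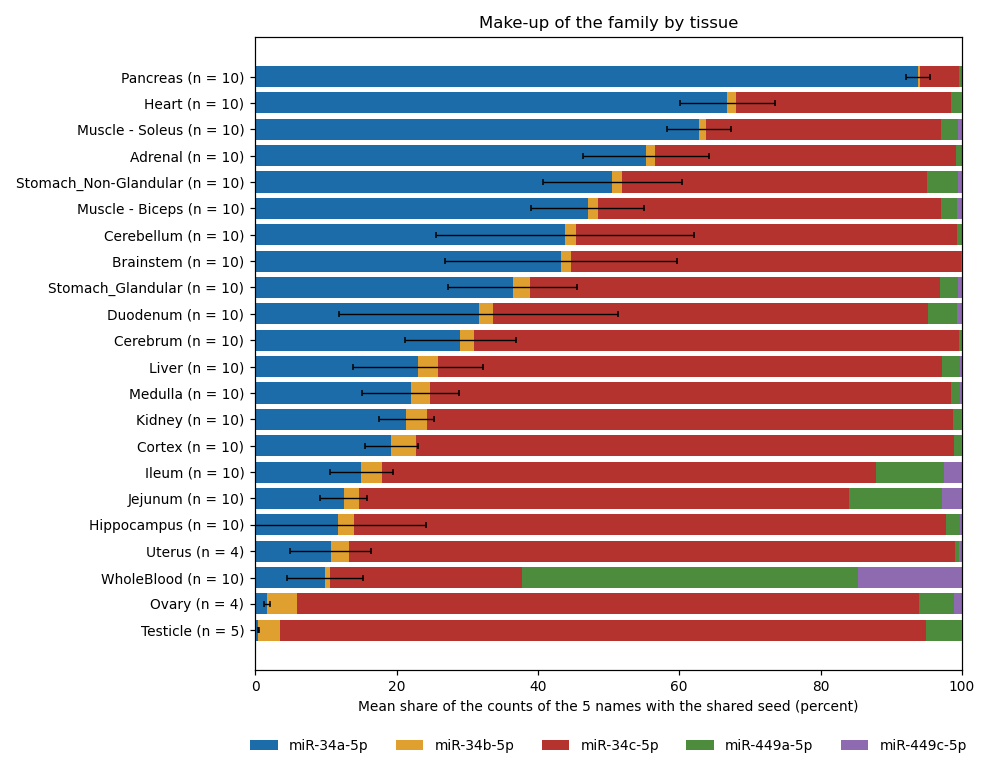
Mean share of miR-34a-5p, miR-34b-5p, miR-34c-5p, miR-449a-5p and miR-449c-5p in their summed counts, in percent, for 22 tissues of single rats (libraries out of place included) ordered by the miR-34a-5p share; the black bar is the SD of that share. It ran from 0.422% in Testicle to 93.75% in Pancreas, and without the libraries out of place it was 8.602% in Hippocampus, 40.47% in Duodenum and 56.42% in Adrenal; WholeBlood was the only tissue with miR-449a-5p as its largest part, at 47.58%.

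The arms were counted unequally. The 3p arm made up 23.57% of miR-34b reads over all samples but 0.5% of miR-34c, 0.43% of miR-34a, 0.09% of miR-449a and 0.23% of miR-449c. The 5p share of miR-34b was 82.22 ± 3.51% in Testicle (SD, n = 5), 73.77 ± 5.98% in Ovary (n = 4), 63.71 ± 5.02% in Brainstem (n = 10) and 57.74 ± 7.98% in Hippocampus (n = 8, those with enough counts, the library of rat 7 included). Without the libraries out of place it was 55.53 ± 5.36% in Hippocampus (n = 7). That of miR-34c was 99.81 ± 0.07% in Testicle, 98.47 ± 0.23% in Ovary and 98.89 ± 0.32% in Brainstem. These shares were described and not tested.

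The 5′ end of a read sets its seed, and the table of single read sequences gave the place of it for each member. 1 sequencing lane stood apart. In the 14 runs of lane 8 of a flow cell, spread over 14 tissues, most miR-34c-5p reads carried 1 additional base at the 5′ end. The commonest such read is shown with its added base in capitals.
miR-34c-5p with an added base: Aaggcagtgtagttagctgattgc
It had 61226 counts. In the 10 runs of the lane with at least 100 counts of miR-34c-5p, 60.4 to 68.81% of reads started 1 base upstream, against 0.0 to 1.471% in 209 runs of other lanes. For miR-34a-5p it was 51.33 to 55.76% in 8 runs against 0.0 to 1.905% in 170. Levels are given for 2 libraries that were read in this lane and on another flow cell. Testicle of rat 5 gave 285414.4 CPM of miR-34c-5p in the lane and 275321.1 on the other flow cell, and Brainstem of rat 6 gave 1038.7 and 967.6. In Brainstem of rat 6 the rarer miR-34b-5p was at 23.03 and 36.55 CPM and miR-449a-5p at 5.499 and 0.0.

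Without that lane, 99.63% of miR-34c-5p reads, 99.66% of miR-449a-5p, 99.71% of miR-449c-5p and 98.67% of miR-34a-5p had the most counted 5′ end. miR-34b was less uniform on both arms. 7.77% of miR-34b-5p reads began 1 base upstream and 17.38% of miR-34b-3p reads 1 base downstream, which moves the seed. With the lane kept, 3 of 54 exact permutation tests of a tissue against Testicle passed, all for miR-34a-5p. Without it, a choice made after seeing the data, 11 of 54 passed. Of these, 7 were for miR-34a-5p, whose share with the usual 5′ end was 97.28 ± 0.59% in Testicle (n = 5) and 98.87% in Brainstem (adjusted p = 0.0045, exact permutation test). 3 were for miR-34b-5p, at 93.29 ± 0.61% in Testicle and 89.66% in Brainstem (adjusted p = 0.0116, exact permutation test), 89.82% in Cerebellum and 90.11% in Ovary. The remaining call was miR-34c-5p in WholeBlood (adjusted p = 0.039, exact permutation), which rests on few counts.

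The 3′ ends told Testicle and Ovary apart, in tests that were not planned beforehand. The reads of the composite row are miR-34c-5p up to the last base and end in the base of miR-34b-5p. Bases 11 and 23, where these miRNAs differ, are in capitals.
composite read: aggcagtgtaGttagctgattgT
miR-34c-5p read: aggcagtgtaGttagctgattgC
miR-34b-5p read: aggcagtgtaAttagctgattgT
They had 4181, 854343 and 26600 counts. The composite row made up 2.324% at most and 2.194% at least of itself and miR-34c-5p in Ovary (mean 2.257 ± 0.055%, n = 4), against 0.12 to 0.229% in Testicle (0.193 ± 0.045%, n = 5). The groups did not overlap, and the exact permutation p was 0.00794 (adjusted 0.0385), the smallest these group sizes allow. Brainstem was at 0.44% (adjusted p = 0.0385, exact permutation), Uterus at 0.458% (adjusted p = 0.0385, exact permutation) and Heart at 1.267% (adjusted p = 0.049, exact permutation). In all, 7 of 21 tissues were higher than Testicle. With each rat left out in turn 0 to 2 tissues passed.

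Among 23-base reads of miR-34c-5p, 2.941 ± 0.115% ended in T in Ovary (n = 4) and 0.199 ± 0.013% in Testicle (n = 5), and 1.603% against 0.237% ended in A (both adjusted p = 0.00952, exact permutation). The reads ending in T have the sequence of the composite read, so their test repeats the one above and is not a second result. G as the last base also differed, at 0.053% against 0.011%. In Brainstem T was at 0.494% and A at 0.644%. Hippocampus of rat 7, which was out of place, had a composite share of 2.366%, just above the range of the 4 Ovary libraries.

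**Figure D5:**
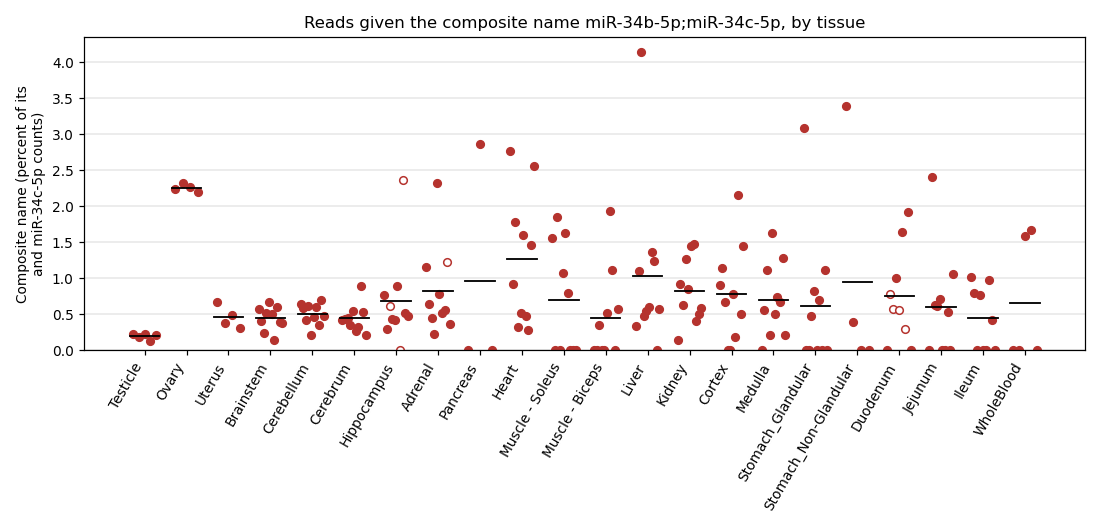
Composite row miR-34b-5p;miR-34c-5p as a percentage of itself and miR-34c-5p, by tissue, 1 point per library with the line at the tissue mean and hollow points for libraries out of place. The 4 Ovary libraries lay together at 2.194 to 2.324% and the 5 Testicle libraries at 0.12 to 0.229%.

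miR-449c-5p was longer in these libraries than in RefSeq. Its most counted read had 26 bases, all matching the hairpin, and the bases beyond the RefSeq end are in capitals.
miR-449c-5p most counted read: aggcagtgcattgctagctggCTGTT
It had 1516 counts. Reads of 25 bases or more made up 91.8% of miR-449c-5p over all samples, 97.8% in Testicle, 87.8% in Ovary and 79.7% in WholeBlood, and 0.04% had the length in RefSeq. miR-34a-5p with 1 additional T at its 3′ end made up 30.36% in Testicle, 39.2% in Ovary, 36.55% in Brainstem and 19.34% in Muscle - Biceps.

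Females and males were compared within 19 tissues for 9 members. Only Hippocampus gave calls, 7 members higher in females (background 2.85% higher, 6.81% lower), and without rat 7 or without the libraries out of place there were 0. The ranges of the sexes were apart for some of the 5 names of the 5p arm, none of them called. How often ranges were apart over all names was not counted, so the ranges below are descriptions and not sex differences. In Adrenal without rat 8, miR-34c-5p was at 142.7 to 309.5 CPM in 4 females and 63.56 to 124.9 in 5 males, and miR-34b-5p at 5.773 to 8.215 and 1.564 to 2.944. The differences did not pass the adjustment over all names (1.2, SE 0.38, adjusted p = 0.147 and 1.53, adjusted p = 0.209, edgeR), and with rat 8 the adjusted p of miR-34c-5p was 0.417. In Kidney miR-34c-5p was at 67.46 to 116.8 CPM in 5 females and 46.87 to 61.18 in 5 males, and miR-34b-5p at 3.286 to 4.643 and 0.6893 to 3.266. In Liver miR-34c-5p was at 73.33 to 102.0 CPM in females and 34.8 to 56.54 in males. In Duodenum without the libraries out of place, with 3 rats of each sex, miR-34c-5p was at 36.26 to 50.62 CPM in females and 18.95 to 30.21 in males. miR-34a-5p ran the other way there, at 14.35 to 26.89 and 27.84 to 44.93 CPM, and miR-449c-5p was at 0.0 to 0.6108 and 0.6318 to 1.591. Over all names and with all libraries, edgeR called 4.37% higher in females and 0.508% lower in Adrenal, 0.203% and 0.0% in Kidney, 0.102% and 0.0% in Liver, and 2.64% and 2.24% in Duodenum; these are shares of calls, not of names whose ranges were apart.

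The names most like each member were taken by Pearson's r of log2(mean CPM + 1) over the 23 tissue means, among 708 plain names. These are descriptions, and all points come from the same libraries. The 5 nearest to miR-34a-5p were miR-3084-3p (0.884), miR-350 (0.869), let-7i-3p (0.854), miR-3068-5p (0.829) and miR-6516-5p (0.819), all nearer than miR-34c-5p (0.701) or miR-449a-5p (0.375). Near miR-34c-5p, its own relatives miR-34b-5p (0.987), miR-34b-3p (0.983) and miR-34c-3p (0.974) came before miR-296-5p (0.902), miR-652-5p (0.89), miR-296-3p (0.886), miR-3065-3p (0.882) and miR-298-3p (0.878), with miR-449a-5p at 0.814. miR-449a-5p was nearest to miR-449c-5p (0.986) and then to 5 miRNAs of the X-linked germ cell region: miR-743a-3p (0.949), miR-463-5p (0.947), miR-881-3p (0.944), miR-743b-5p (0.944) and miR-871-5p (0.942). Without the libraries out of place these were miR-471-5p (0.95), miR-743a-3p (0.946), miR-743b-5p (0.946), miR-471-3p (0.945) and miR-202-3p (0.945), the last outside that region. Near miR-34a-5p, miR-879-5p (0.821) then took the place of miR-6516-5p, and near miR-34c-5p, miR-3120 (0.883) that of miR-298-3p.

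10 other miRNAs linked to p53, among them miR-192, miR-215, miR-143 and miR-145, were set beside miR-34a-5p. In Testicle 0 were called higher and 4 lower (median -0.99, all names -0.46), beside 18.9% and 16.2% of all names. In the brain regions it was 0 higher and 8 lower (median -1.72, all names -0.74), beside 25.4% and 33.8%. In Ovary and in Uterus 3 were higher and 3 lower, with medians of -0.66 and -0.69 (all names -0.31 and -0.34), beside 12.8% and 5.46% of all names in Ovary and 10.3% and 2.46% in Uterus. Of the 8 miRNAs listed as epithelial, 3 were higher and 0 lower in Ovary (median 1.68) and in Uterus (median 1.67), 7 were lower in Testicle (median -3.65) and 8 in brain (median -4.98), to be read against the same shares of all names. The higher ones were all of the miR-200 family. miR-183-5p, miR-182 and miR-96-5p were not called in Ovary (0.33, -0.17 and 0.18) or in Uterus (0.07, -0.17 and 0.26).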

How the data were processed

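Total RNA of 23 rat tissues was made into small RNA libraries (TruSeq) and sequenced on an Illumina machine. The deposited tables hold raw counts per miRNA name and per read sequence: the authors trimmed reads with cutadapt 1.4.1, matched them with miRDeep2 to known miRNAs of several species and to predicted rat precursors, and summed whole reads, with no normalization. The 458 runs came from 215 libraries; runs of a library were summed after setting aside 14 that repeated a lane, and the 10 DRG libraries were summed into 2 pools, leaving 1 sample per rat and tissue and 2 pools. No sample column went unused.

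Differences were tested with edgeR 4.0.16 in R 4.3.3 (quasi-likelihood, upper quartile scaling, filterByExpr, 1629 of 7534 names tested, tissue as the only term, adjusted p under 0.05), and within 19 tissues for sex over 984 names. SE is the absolute log2 fold change over the square root of F. CPM is counts per 1000000 of all counted miRNA reads of a sample, which compares a name between tissues. miRNAs are of like length, but by the paper ligase bias may depend on the sequence, so CPM of different names compare reads. Shares needed at least 50 counts per library, and tests of 5′ ends at least 4 libraries per tissue; they used two-sided exact permutation tests on means (scipy 1.17.1, Python 3.11.15). DESeq2 1.42.0, TMM scaling, no filter, single flow cells, libraries left out and a block by rat were alternatives. On counts simulated for Testicle against the rest over 1013 names, with 200 changed by a log2 of 2, 98.5% were recovered, and 48 unchanged names were called. That is a larger part of the calls than the threshold of 0.05 aims at. Changed names had medians of 2.36 (up) and -1.67 (down). Outside the changes, each simulated name had 1 mean for all tissues and all names 1 dispersion, unlike the data, so error rates there may differ.

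Every name matched by the rule was named; for miR-34a-5p, miR-34c-5p and miR-449a-5p the 5 most alike plain names were added, with 3 lists of miRNAs. The members and lists were chosen with earlier results of these data known. Libraries of a tissue came from separate rats, and one rat gave many tissues: deviations from tissue means correlated with a median r of 0.0153 over 1960 pairs of the same rat and -0.0056 over 17666 pairs of different rats. Counts carry no molecular identifiers, so a low count has at least its counting error. RefSeq sequences are on GRCr8, and all 5 miRNAs of the rule matched; the predicted names of the files use the older build RN5, and no coordinate was moved between them.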

Additional observations from a re-analysis of the deposited data

Results flagged for a closer look

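In groups of 4 to 10 libraries, a value whose gap to its nearest neighbour took up more of the group's range than Dixon's 95% critical value was marked, over 5 names of the 5p arm. Of 110 groups 22 held such a library, and 7 of the 22 were libraries out of place. Dixon's value gives about 1 in 20 by chance for independent normal values only. These CPM were not shown to be normal, some rest on a few counts, and miR-34b-5p and miR-34c-5p were often marked together. An excess over chance is thus not read from the 22. No cause was tested.

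miR-34a-5p stood apart in Liver of rat 5 (35.76 CPM, next 25.04), Muscle - Biceps of rat 2 (59.19, next 33.41), Stomach_Non-Glandular of rat 8 (15.83, next 10.89) and Uterus of rat 7 (29.48, next 11.14). Muscle - Biceps of rat 2 also stood apart for miR-34c-5p (62.18 CPM, next 40.05) and miR-34b-5p (2.351, next 1.317). Heart of rat 3 did so for miR-34c-5p (80.35 CPM, next 56.48) and miR-34b-5p (4.909, next 2.295), and Stomach_Non-Glandular of rat 6 for miR-34c-5p (26.78, next 11.73) and miR-34b-5p (1.054, next 0.366). Jejunum of rat 9 was apart for miR-34c-5p alone (53.81 CPM, next 40.21).

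Of the libraries out of place, Hippocampus of rat 7 was apart for miR-34b-5p (193.3 CPM, next 71.78), miR-449a-5p (291.8, next 14.66) and miR-449c-5p (26.88, next 3.724). Duodenum of rat 7 was apart for miR-34c-5p (3620.9 CPM, next 1012.6), miR-34b-5p (65.8, next 32.81) and miR-449c-5p (4.413, next 1.93), and Adrenal of rat 8 for miR-449a-5p (4.376, next 1.098).

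The remaining marks of miR-449c-5p rest on a handful of counts: Cerebrum of rat 7 (0.9731 CPM, next 0.557), Muscle - Soleus of rat 8 (0.9431, next 0.486), Pancreas of rat 9 (0.2586, all others at 0.0) and Stomach_Non-Glandular of rat 8 (0.4398, next 0.166).

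3 rows named for miR-449b, which lie outside the rule for the members, were counted in Testicle. The row for miR-449b-5p had 327 counts (mean 133.0 CPM, against 9.839 in Ovary), the precursor row 10 and the row named after miR-449b without an arm 4.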

How the results depend on the processing

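Most values kept their direction and their side of the threshold. Among the counts of members and the shares, 692 of the alternative values were alike and 46 moved; among the fold changes of named members, 1393 were alike, 22 lost a call, 7 gained one and 11 turned direction. With the rat as a replicate block, 9 members were higher in Testicle (10 without it), miR-34c-5p by 9.92 and miR-34a-5p by 3.13, 8 in Ovary, 4 in Uterus and 6 in Brainstem over Cerebrum (4 without it). The cause of the changes below was not tested.

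For brain against non-neural tissues, the 2 lower members fell to 0 with TMM scaling, DESeq2 or 1 flow cell only, and miR-449a-5p turned to 0.14 (TMM) and 0.11 (DESeq2). DESeq2 gave 1 lower member in Uterus and 2 in Hippocampus against Cerebrum. Brainstem exceeded Cerebrum for 7 members with TMM scaling, DESeq2 or the 10 libraries left out, and exceeded Testicle for 1 with each of these. Over all names, calls of Brainstem above Cerebrum also rose, from 51 of 1629 to 97 of 1629 (TMM) and 106 of 1118 (DESeq2). The larger number of members is thus not particular to the family. Cerebellum exceeded Cerebrum for 1 member with no filter and with 1 flow cell. Hippocampus exceeded it for 2 without the 10 libraries, and the sex calls were then 0, or 3 on 1 flow cell. Lower calls over all tissues dropped to 26 on 1 flow cell. 5′ ends gave 8 calls at 10 or more counts and 11 without the lane, and 3′ ends 0 on 1 flow cell and 4 on the others. The miR-34b 5p share of Hippocampus moved to 67.2% (200 or more counts) and 69.2% (1 flow cell), and the miR-34c share of Uterus to 97.02% (1 flow cell).

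miR-34a-5p in Brainstem against Testicle turned to -0.12 on the other flow cells and -0.0028 without rat 3, and in Ovary against Uterus to -0.22 with the 2 libraries put back and -0.16 without rat 9; none was called. miR-449a-5p in Brainstem against Cerebrum, also not called, turned to -0.0108 on the other flow cells, -0.18 without rat 4, -0.12 without rat 7 and -0.0322 without either DRG pool. With each rat or pool left out in turn, these 3 differences ran from -0.0028 to 0.5194, from -0.1576 to 0.7476 and from -0.1831 to 0.1529. Without a DRG pool the smallest group has 1 sample, so more names pass the filter and the scaling changes.

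With each rat left out in turn, the members higher numbered 9 to 10 in Testicle, 7 to 8 in Ovary, 3 to 4 in Uterus, 7 in brain (0 to 2 lower), 3 to 6 in Brainstem, 2 to 3 in Cerebellum and 2 to 7 in Hippocampus against Cerebrum, 0 to 1 in Brainstem against Testicle, 8 to 9 in Testicle against Ovary, 5 to 7 in Ovary against Uterus and 0 to 8 between the sexes. Calls over all tissues ran from 54 to 57 higher and 65 to 74 lower. Tissues above Testicle in miR-34a-5p share numbered 20 to 21, calls at 5′ ends 0 to 4 and at 3′ ends 0 to 2, and the miR-34b 5p share of Hippocampus ran from 55.534 to 59.309%. Testicle's depth limits the rare names there.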

Other observations

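miR-34a-3p, the passenger arm of miR-34a, had 696 counts in all, and its most counted read did not start where RefSeq places it. Without the lane of added bases, 39.67% of its reads shared the 5′ end of that read and 57.93% started 1 base downstream. That downstream place is the start in RefSeq, so most reads of miR-34a-3p began where RefSeq places it (56.75% with the lane kept).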
